A study of Schizosaccharomyces pombe with 4 samples.

Results

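Fkh2 is a forkhead transcription factor of the fission yeast Schizosaccharomyces pombe, and its binding sites were mapped by chromatin immunoprecipitation followed by sequencing (ChIP-seq). Forkhead factors read DNA through a winged-helix domain that prefers the word GTAAACA. In fission yeast Fkh2 acts with the related factor Sep1 and the MADS-box factor Mbx1 at the promoters of genes transcribed from mitosis to cytokinesis. Sak1 is an RFX-family factor, which reads a different word, and the series title names it as a partner of the forkhead factors in mitotic expression. A further forkhead factor, Mei4, drives the middle genes of meiosis through the same core word.

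All 152 rows of the deposited Fkh2 peak list were taken as members. They were called in a strain whose Fkh2 carries a C-terminal TAP tag (strain JLP1586, an affinity tag that binds IgG beads), against an untagged strain (F108) put through the same immunoprecipitation. Both cultures were asynchronous and grown in YES, a rich medium, so cells of every cell-cycle stage were mixed. The labels give each of these groups as 1 sample that aggregates 2 biological experiments, so no replicate error could be computed and differences between groups of peaks are given without a test. The Sak1 peaks used for comparison came from a strain with C-terminally TAP-tagged Sak1 (JLP1792), grown in the same way. Peaks of Sep1-TAP, used for overlap only, came from a culture treated with 1 mM bortezomib, a proteasome inhibitor, for 45 min. That group too was 1 sample of 2 pooled experiments. A Fkh2 peak was counted as shared when a Sak1 peak overlapped it by 1 bp or more. By this rule 36 Fkh2 peaks were shared and 116 were not (76.3%, exact binomial 95% interval 68.7 to 82.8). The 3 peak lists of the series hold 210 peaks in all.

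The Fkh2 library held 1042990 tags (aligned reads) and the scaling in the list implies 486279 for the untagged library. Before its filters the peak caller had proposed 5476 regions, of which the 152 peaks are 2.78%. The untagged control removed 4969 and the comparison with the surrounding 10000 bp removed 355. Each peak is 155 bp wide. For each one the deposited list gives the untagged tags and the Fkh2 tags scaled to the depth of the untagged library, and the fold is the authors' ratio of these. Intervals on a fold are exact binomial 95% limits on the tags of both libraries and cover counting error only. Where the untagged count is 0.5, the lowest value listed, the fold is given as a lower bound against 3 tags, written as "at least". This bound is not a 95% limit, since it takes no account of counting error in the Fkh2 tags.

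Sequences of 11 peaks are printed because the results turn on them: both peaks of the ecm33 promoter, the strongest peak with neither Sak1 nor a forkhead word, and peaks at glycolytic genes (pyk1 and gpd3), an amylase-family gene (SPAC27E2.01), a septum gene (chs2), a mitotic gene (ark1), a pair of S-phase genes (mik1 and ssb1) and genes of mating and meiosis (ste6 and mei2). They were read from the forward strand of the RefSeq assembly ASM294v3. Capitals mark the forkhead word GTAAACA on either strand (read as TGTTTAC on the other strand) and the palindromic MCB word ACGCGT, the site of the G1/S factor MBF.
ecm33, shared with Sak1, chrI:1571633-1571787: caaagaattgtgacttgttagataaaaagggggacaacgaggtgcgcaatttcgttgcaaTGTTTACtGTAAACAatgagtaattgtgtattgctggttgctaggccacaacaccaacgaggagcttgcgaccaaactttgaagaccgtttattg
ecm33, no Sak1 peak, chrI:1572200-1572354: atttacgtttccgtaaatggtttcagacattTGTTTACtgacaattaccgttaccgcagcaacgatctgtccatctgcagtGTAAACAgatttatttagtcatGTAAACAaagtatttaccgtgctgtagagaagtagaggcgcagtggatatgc
gto1, no Sak1 peak, chrI:5475211-5475365: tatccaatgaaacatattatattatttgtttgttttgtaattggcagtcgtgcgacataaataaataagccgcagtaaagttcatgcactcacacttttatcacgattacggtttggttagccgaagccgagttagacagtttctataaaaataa
pyk1, no Sak1 peak, chrI:3846998-3847152: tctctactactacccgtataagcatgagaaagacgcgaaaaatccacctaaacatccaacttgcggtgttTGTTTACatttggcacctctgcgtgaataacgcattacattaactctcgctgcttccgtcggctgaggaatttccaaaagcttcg
SPAC27E2.01, no Sak1 peak, chrI:4001529-4001683: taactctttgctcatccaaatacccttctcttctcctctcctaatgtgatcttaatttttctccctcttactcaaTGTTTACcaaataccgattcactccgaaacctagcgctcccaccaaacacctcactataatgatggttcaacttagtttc
chs2, no Sak1 peak, chrII:1095046-1095200: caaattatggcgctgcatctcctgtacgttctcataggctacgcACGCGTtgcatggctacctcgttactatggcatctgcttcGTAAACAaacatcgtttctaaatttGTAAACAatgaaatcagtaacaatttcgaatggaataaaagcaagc
ark1, no Sak1 peak, chrIII:141520-141674: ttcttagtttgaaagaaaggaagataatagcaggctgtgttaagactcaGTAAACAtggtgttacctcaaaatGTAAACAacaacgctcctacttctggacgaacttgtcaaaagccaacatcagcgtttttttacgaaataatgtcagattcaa
gpd3, no Sak1 peak, chrII:577965-578119: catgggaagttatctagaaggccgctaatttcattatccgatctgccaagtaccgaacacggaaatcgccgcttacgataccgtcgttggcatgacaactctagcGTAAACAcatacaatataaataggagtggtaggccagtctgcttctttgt
mik1 and ssb1, no Sak1 peak, chrII:221329-221483: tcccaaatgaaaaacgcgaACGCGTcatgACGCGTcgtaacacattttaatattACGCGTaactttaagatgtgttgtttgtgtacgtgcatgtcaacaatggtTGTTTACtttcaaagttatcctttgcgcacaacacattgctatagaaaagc
ste6, no Sak1 peak, chrIII:1765781-1765935: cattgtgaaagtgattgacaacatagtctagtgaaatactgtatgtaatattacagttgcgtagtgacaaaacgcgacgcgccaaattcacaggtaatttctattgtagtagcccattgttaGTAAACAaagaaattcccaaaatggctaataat
mei2, no Sak1 peak, chrI:4514912-4515066: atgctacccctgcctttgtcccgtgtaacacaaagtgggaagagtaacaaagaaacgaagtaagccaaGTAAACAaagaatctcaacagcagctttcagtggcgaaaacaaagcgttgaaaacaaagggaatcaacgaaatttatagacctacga

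The distal ecm33 peak holds 3 forkhead words within its 155 bp, the ecm33 peak shared with Sak1 holds 2, and the chs2 and ark1 peaks hold 2 each. The mik1 and ssb1 peak holds 3 MCB words beside a single forkhead word. The gto1 peak holds neither word.

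The peaks without Sak1 were spread over the whole order of the Fkh2 list but were concentrated toward its lower end. They made up 6 of the first 20 peaks by normalised tag count (tags per 10000000), 24 of the first 50, 45 of the 76 highest and 71 of the 76 lowest. Their median normalised tag count was 740.6, with quartiles of 532.1 and 1188 and a range of 278 to 4664.5. The fold over untagged had a median of 9.21 at peaks without Sak1 (quartiles 6.15 and 15.3) and of 28.6 at shared peaks (12.2 and 79.8). Untagged tags were alike, with a median of 4 at peaks without Sak1 and 3 at shared ones. Counting error left the fold open to values below the required 4 at 68 of the 116 peaks without Sak1 and at 7 of the 36 shared ones.

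**Figure D1:**
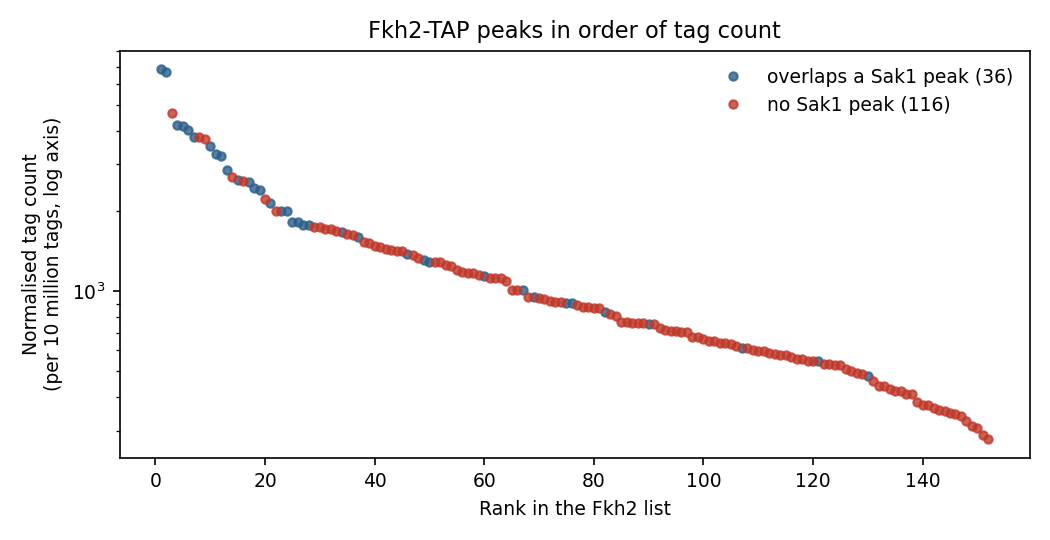
Normalised tag count (per 10000000 tags, log axis) of each Fkh2-TAP peak against its rank, with peaks that overlap a Sak1 peak in blue and the others in red. The others hold 6 of the first 20 places and 71 of the last 76.

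**Figure D2:**
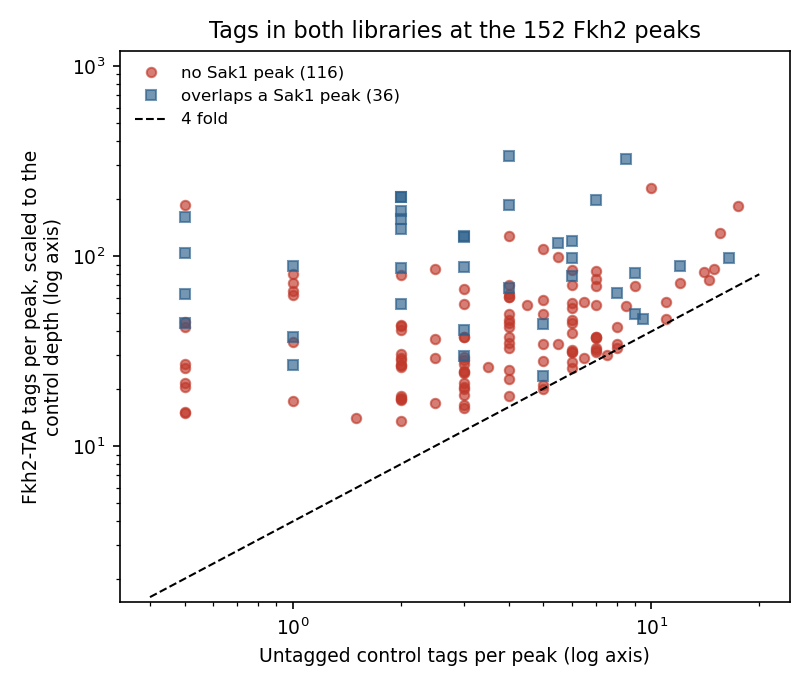
Fkh2-TAP tags scaled to the control depth against untagged control tags for each of the 152 peaks, both on log axes, with the required 4 fold as a dashed line. Untagged tags run from 0.5 to 17.5 and the peaks without a Sak1 overlap (red circles) lie closer to the line than the shared ones (blue squares).

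A Sak1 list that stops at a threshold cannot show that Sak1 is absent. The lowest normalised tag count in the Sak1 list was 440.2, and the Sak1 signal at the 116 sites was not analysed here. The overlap rule itself had few borderline cases. The shared peak with the least overlap was that at myp2, a myosin heavy chain gene, with 15 bp. The nearest Sak1 centre to an unshared peak lay 567 bp away, at the distal ecm33 peak, and the next lay 3009 bp away, at apc10. None of the 116 overlapped a peak of Sep1-TAP (0%, 95% interval 0 to 3.13), whereas 8 of the 36 did, 5.26% of all 152. Those 8 ranked from 1 to 27 by tag count, so this contrast cannot be told apart from peak strength. The Sep1 culture had been treated with bortezomib and its list holds 11 peaks.

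The strongest peak without Sak1 was the distal site in the promoter of ecm33, which encodes a cell surface protein with leucine-rich repeats. It held 228.1 Fkh2-TAP tags, scaled to the control depth, against 10 untagged tags, a fold of 22.8 (95% interval 12.2 to 47.6). Its centre lay 688 bp upstream of the annotated gene start, between protein-coding genes. The proximal ecm33 peak, 567 bp away and 121 bp upstream of the start, overlapped a Sak1 peak and held 334.5 tags against 4. A gene was counted as in reach when a peak centre lay from 1000 bp upstream to 250 bp downstream of its annotated 5′ end. Any Fkh2 peak had 145 of the 5113 nuclear protein-coding genes in reach (2.84%). Peaks without Sak1 had 101 in reach, 1.98% of all genes. Of these 101, 1 gene, ecm33, also had a Sak1 peak in reach. Shared peaks had 45 of all 5113 genes in reach (0.880%), so 1 of 101 is near that share.

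The next peaks stood at genes of diverse roles. At gto1, annotated as an alpha-glucosidase, 185.9 Fkh2-TAP tags stood against 0.5 untagged tags, at least 62.0-fold higher, with the centre 343 bp upstream. This was the highest listed fold of the whole Fkh2 list, 372, and it rests on almost no control tags. At ubp11, a ubiquitin hydrolase gene, 182.4 tags stood against 17.5, a fold of 10.4 (6.46 to 17.9). The untagged count at ubp11 was the highest of all 152 peaks. At pyk1, which encodes the glycolytic enzyme pyruvate kinase, 131.6 tags stood against 15.5 untagged tags, a fold of 8.49 (5.06 to 15.1). At eis1, a gene for the assembly of eisosomes (plasma membrane furrows), 126.7 tags stood against 4, a fold of 31.7 (12.2 to 117). The eis1 peak lay in the annotated 3′ UTR of the neighbouring gene SPCC63.13.

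Next in order came a peak inside the coding sequence of mug124, with 108.6 Fkh2-TAP tags against 5 untagged tags and no gene start in reach. It was followed by urg1 (a gene annotated as GTP cyclohydrolase II), where 98.3 tags stood against 5.5 at 94 bp upstream. The other 13 of the first 20 unshared peaks had normalised tag counts of 1433 to 1745 and folds of 5.14 to 79.9. They lay at atf21 (a transcription factor of the Atf-CREB family), SPCC576.17C, SPAC27E2.01, tps1, bdf2 (a bromodomain protein), pvg1, rcl1 (rRNA processing), rsc58 (a chromatin remodeller subunit), hsp9, cyc1 (cytochrome c) and knh2. The remaining 2 had no gene start in reach: 1 lay between genes, 2538 bp upstream of the nearest start, that of SPBC36.02C, and 1 in the 5′ UTR of SPBC19C7.04C. The peak at hsp9 lay in its coding sequence, with 74.5 tags against 14.5 and a fold of 5.14 (2.96 to 9.40). Those at rsc58 and cyc1 lay in the coding sequence of the neighbours SPAC1F3.08C and SPCC191.06, and that at tps1 in the 3′ UTR of dbl4. The SPCC576.17C peak lay in the 5′ UTR of that gene. Lower limits of the fold were also below the required 4 at SPCC576.17C (3.34), bdf2 (3.39) and cyc1 (3.33). For comparison, the 10 strongest shared peaks, among them those at ecm33, mde6 with pun1, knh4, cts2 with gde1, SPCC306.11, gas1, mug122 and exg1 and in SPCC1840.13, had counts of 2852 to 6836.

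Most peaks without Sak1 lay upstream of a gene start, but they were more scattered than the shared peaks. Of the 116, 81 had a gene start in reach (69.8%, 95% interval 60.6 to 78.0), against 35 of 36 shared peaks (97.2%, 85.5 to 99.9). For scale, positions with a gene start in reach cover 41.6% of the nuclear genome. From the closest gene start the median distance was 71.5 bp upstream, with quartiles of -174.75 and 365.5 bp, where a negative value is downstream. For shared peaks it was 72.5 bp upstream, with quartiles of 21.75 and 181.5 bp. Within 500 bp of the nearest start lay 74 of the 116 and all 36 shared peaks. At 20 of the 116, 2 or more gene starts were in reach, among them chs2 with pst3 (a Sin3-family corepressor subunit), cdt1 with wpl1, and gal1 with gal10, neighbouring genes of galactose metabolism.

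**Figure D3:**
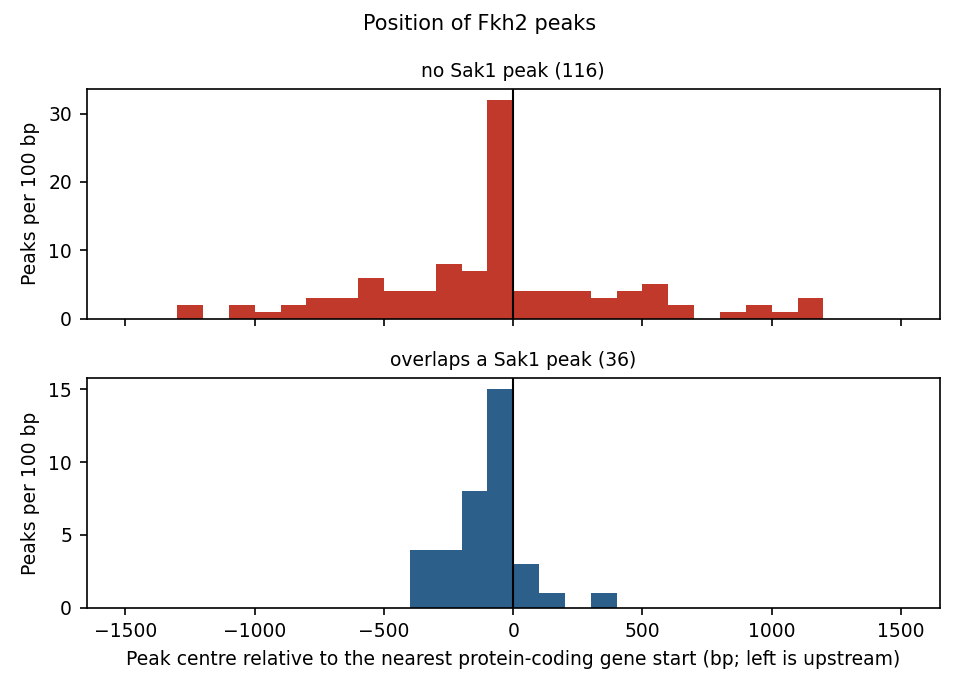
Distance in bp from the nearest protein-coding gene start to the peak centre (negative is upstream), as peaks per 100 bp, for the 116 peaks without Sak1 (top) and the 36 shared peaks (bottom). The first 100 bp upstream hold 32 and 15 peaks; 9 of the 116 lie beyond the plotted 1500 bp and are not drawn.

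By annotation, 71 of the 116 centres lay between protein-coding genes (61.2%, 51.7 to 70.1), a class that makes up 23.3% of the nuclear genome. Coding sequence held 27 (23.3%, 15.9 to 32.0), against 2 of the 36 shared peaks (5.56%, 0.680 to 18.7), and covers 56.9% of the genome. The annotated 3′ UTRs held 12 and the 5′ UTRs 6, and no centre lay in an intron. Long noncoding RNA genes, which cover 47.7% of the genome, lay under 71 of the 116 centres (61.2%) and 14 of the 36 shared centres (38.9%). A tRNA gene lay within 500 bp of 1 of the 116.

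The forkhead word GTAAACA was about as common without Sak1 as with it. It lay within 150 bp of the centre at 84 of 116 peaks without Sak1 (72.4%, 63.3 to 80.3) and at 28 of 36 shared peaks (77.8%, 60.8 to 89.9). In windows of the same length of 301 bp ending at the gene start, 17.1% of all protein-coding genes held the word, and 9.23% of windows tiled over the genome did. At peaks without Sak1 the nearest word lay a median of 23.5 bp from the centre (quartiles 7.75 and 46.2), and 75 of 116 peaks held a word within their own 155 bp. Shared peaks held 2 or more words at 13 of 36 (36.1%, 20.8 to 53.8), and the others at 19 of 116 (16.4%, 10.2 to 24.4). At the peaks without Sak1 that had a gene start in reach, 41 words pointed along the nearest gene and 41 against it.

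**Figure D4:**
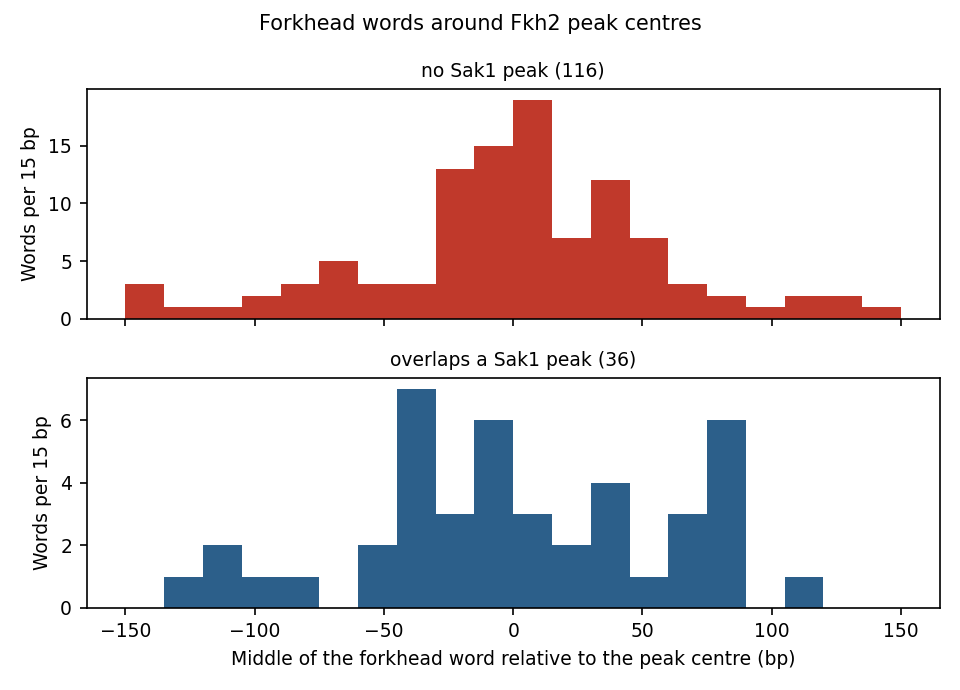
Position of each forkhead word (either strand) relative to the peak centre in bp, as words per 15 bp, for the 116 peaks without Sak1 (top) and the 36 shared peaks (bottom). The nearest word lay a median of 23.5 bp from the centre in the upper panel (quartiles 7.75 and 46.2) and 30.5 bp in the lower (quartiles 15 and 56.2). Every word is drawn, and shared peaks more often held 2 or more.

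Other words were searched on both strands in the same windows. The RFX word GTTNCCA lay at 13 of 116 peaks without Sak1 (11.2%, 6.10 to 18.4), close to the 10.2% of all gene starts, and at 18 of 36 shared peaks (95% interval 32.9% to 67.1%). The MCB word ACGCGT lay at 13 of 116 (11.2%) and 4 of 36 (11.1%), against 2.89% of gene starts. The peaks without Sak1 that held it included those at chs2, mik1 with ssb1, cdt1, cdc10, pyk1, eis1 and knh2. The remaining words were chosen after the genes were known. The Ste11 word TTCTTTGT, the core of the site of the mating regulator Ste11, lay at 14 of 116 (12.1%) and 1 of 36 (2.78%), against 3.76% of gene starts. It can share letters with the forkhead word, as at ste6 and mei2, so its share is not independent of that of the forkhead word. The CRE word TGACGT, the site of Atf-CREB factors, lay at 20 of 116 (17.2%) and 4 of 36 (11.1%), against 6.02%. A match says only that these letters stand there.

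The forkhead word and a gene start in reach were more frequent among the stronger of the 116 peaks. They were ranked by tag count and divided into 4 groups of 29. In the group with the highest counts (1198.5 to 4664.5), 26 held the forkhead word (89.7%, 72.6 to 97.8), 25 had a gene start in reach and 6 lay in coding sequence. Both middle groups held the word at 22 of 29 peaks, had a gene start in reach at 23 and 19, and lay in coding sequence at 2 (6.90%) and 5 (17.2%). In the lowest group (278 to 532.1), 14 held the word (48.3%, 29.4 to 67.5), 14 had a gene start in reach, and 14 lay in coding sequence (48.3%). The coding share thus did not follow the order of strength; it was highest in the lowest group, whose interval (29.4 to 67.5) overlapped that of the highest (7.99 to 39.7). Counting error left the fold open to values below 4 at 5, 14, 25 and 24 of 29 peaks from the highest group to the lowest. Peaks with 0.5 untagged tags were again judged by their bound against 3 tags, so the 24 may be too low. The 5 lowest peaks of the list were all without Sak1: 13.5 to 15.8 tags against 0.5 to 3 untagged tags, in the coding sequence of swp1 and dhp1 and upstream of gal1, ini1 and mhr1. The lowest fold, 4.01, was reached by a peak 1227 bp upstream of pho841 and by 1 whose closest start was that of tlh2, with no gene start in reach.

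**Figure D5:**
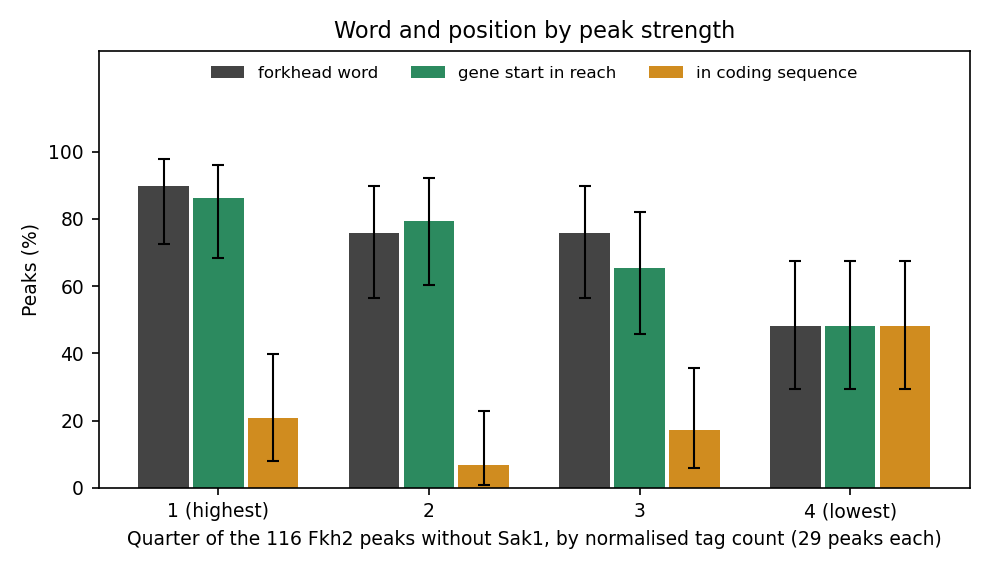
Share of peaks (%) with the forkhead word, with a gene start in reach and centred in coding sequence, for 4 groups of 29 Fkh2 peaks without Sak1, from the highest to the lowest tag count; error bars are exact binomial 95% intervals. The word stands at 89.7% in the highest group and 48.3% in the lowest, and coding sequence at 20.7%, 6.90%, 17.2% and 48.3% from the highest group to the lowest.

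Lists of genes by role were written with earlier results of these data known, so the shares of their members are a description and not independent of the data. Members of the lists were in reach of peaks without Sak1 at 27 of 469 genes (5.76%) and of shared peaks at 24 (5.12%). M-phase genes were mostly reached by shared peaks. Of 27 genes in a list of the forkhead-dependent M-phase cluster, 10 had a shared peak in reach (37.0%) and 2 a peak without Sak1 (7.41%), against 0.880% and 1.98% of all genes. They included cdc15, cdc25, imp2, klp5, mde6, myp2, plo1, rho4 and spo12. The 2 were ark1 and chs2. At ark1, which encodes the Aurora kinase of chromosome segregation, 62.7 Fkh2-TAP tags stood against 4 untagged tags, a fold of 15.7 (5.98 to 58.4), 33 bp upstream of the start. At chs2, a gene for a chitin synthase-like protein of the septum, 69.2 tags stood against 7, a fold of 9.88 (4.68 to 25.0), 98 bp upstream. Of 31 genes of mitotic entry, the anaphase-promoting complex and exit, 3 had a peak without Sak1 (9.68%), namely ark1, apc10 and mik1, and another 3 a shared peak, namely cdc25, plo1 and spo12. The apc10 peak lay just inside the coding sequence of this subunit gene of the complex, with 53.3 tags against 6. The contractile ring list had 1 of 23 in reach of peaks without Sak1 (4.35%), chs2, and 4 of shared peaks (17.4%). None of 12 genes of the septation initiation network had a Fkh2 peak of either kind in reach, near the 2.84% of all genes.

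Some genes of the G1/S transition were in reach of peaks without Sak1. Of 19 targets of MBF, which drives genes for DNA replication, 4 had such a peak in reach (21.1% against 1.98% of all genes) and 1, the cohesin gene rad21, a shared one (5.26% against 0.880%). The kinase gene mik1, an inhibitor of mitotic entry, and ssb1, a subunit gene of replication factor A, were both in reach of a single peak of 58.7 Fkh2-TAP tags against 5 untagged tags, a fold of 11.7 (4.86 to 36.5). Its centre lay 108 bp inside the mik1 5′ UTR and 108 bp upstream of ssb1. At cdt1, the replication licensing gene, 45.9 tags stood against 4, a fold of 11.5 (4.34 to 43.0), and no forkhead word lay within 150 bp. At dut1, which encodes a dUTPase, 34.5 tags stood against 5.5, a fold of 6.27 (2.66 to 18.6). The MBF subunit gene cdc10 was reached by a weak peak 512 bp upstream, with 31.2 tags against 6, also without the word. It was the 1 of 15 cell-cycle transcription factor genes in reach of a peak without Sak1. The 4 targets thus stand for 3 peaks, and cdt1, mik1 and ssb1 were the targets whose peaks held the MCB word.

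Mating and meiosis genes were reached at 5 of 28 by peaks without Sak1 (17.9% against 1.98% of all genes) and at 0 of 28 by shared peaks. Shared peaks had 0.880% of all genes in reach, so that 0 of 28 is near their overall share. The pheromone gene map2 had 42.4 Fkh2-TAP tags against 0.5 untagged tags, at least 14.1-fold higher, 455 bp upstream, with no forkhead word. The pheromone MAP kinase gene spk1 had 55 tags against 7, a fold of 7.85 (3.67 to 19.8). At ste6, which encodes the exchange factor of Ras1, 34.9 tags stood against 4, a fold of 8.74 (3.28 to 32.9). At mei2, the master RNA-binding protein of meiosis, 24.9 tags stood against 3, a fold of 8.31 (2.70 to 41.6), 36 bp inside the 5′ UTR. The spk1, ste6 and mei2 peaks held the Ste11 word and the forkhead word, and the map2 and mei3 peaks did not hold the Ste11 word. At ste6 the only Ste11 word, read on the other strand, shares the letters ACA with the forkhead word. At mei2 the same holds for 1 of the 2 Ste11 words. The mei3 gene, which encodes an inhibitor of the Pat1 kinase that blocks meiosis, carried 2 Fkh2 peaks 839 bp apart. The first lay 329 bp upstream with 37.0 tags against 7, and the second in the coding sequence with 31.2 tags against 7. Both folds, 5.29 and 4.46, were close to the required 4.

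Outside the list, and named after their values were seen, peaks without Sak1 also reached mfm2 (M-factor pheromone), rec24 (meiotic recombination), bqt1 (meiotic telomere bouquet) and spn5 (a meiotic septin). The peaks of 3 of these lay nearer to another start: SPAC513.04 at 28 bp against mfm2 at 125 bp, rga9 at 44 bp against rec24 at 76 bp, and SPAC16A10.01 at 216 bp against spn5 at 986 bp. At rec24 20.5 tags stood against 0.5, at least 6.83-fold higher, and at mfm2 21.0 tags against 5, a fold of 4.19. Genes named mug or meu, from screens for transcripts upregulated in meiosis, were taken as a group after peaks had been seen in them, so their shares are a description. They were in reach at 3 of 110 (2.73%), near the 1.98% of all genes. Their gene bodies held 6 of the 45 unshared peaks centred inside protein-coding genes (13.3%), while they make up 1.74% of the summed length of such genes. These 6 lay in mug124, mug106, mug153, mug115, mug146 and mug116, and 5 of them held the forkhead word.

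Genes of glycolysis and fermentation had the highest share in reach of peaks without Sak1 among the 15 lists. These lists were written with earlier results of these data known, so their order is a description only. Of 16 genes, 5 were reached (31.2% against 1.98%), namely pyk1, gpm1, gpd3, tpi1 and adh4, and none was reached by a shared peak, near the 0.880% of all genes. At gpm1, the phosphoglycerate mutase gene, 66.9 Fkh2-TAP tags stood against 3 untagged tags, a fold of 22.3 (7.48 to 109), in the coding sequence of its neighbour mug106. At gpd3, which encodes glyceraldehyde phosphate dehydrogenase, 61.0 tags stood against 4, a fold of 15.3 (5.78 to 56.4), 75 bp upstream. At tpi1, the triosephosphate isomerase gene, 42.2 tags stood against 4, and at the alcohol dehydrogenase gene adh4 36.3 against 2.5, in a peak that lay nearer to SPAC5H10.07. The peaks of pyk1, gpm1, gpd3 and tpi1 held the forkhead word and that of adh4 did not. Their untagged counts were 2.5 to 15.5, with pyk1 the one above the median of 4 over the 116 peaks. Ribosomal protein genes were in reach at 2 of 135 (1.48%), rpl2501 and rpl2702, near the 1.98% of all genes. None of the 10 histone genes was in reach.

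Cell wall and surface genes were reached by both kinds of peak, 4 of 34 by peaks without Sak1 (11.8% against 1.98% of all genes) and 9 by shared ones (26.5% against 0.880%), with ecm33 in both. This list, gto1 included, was written with earlier results of these data known, so its shares are a description. The 4 were ecm33, gto1, chs2 and pvg1, a Golgi pyruvyl transferase gene at which 79.9 tags stood against 1, a fold of 79.9 (14.2 to 3176). That upper limit shows how little 1 untagged tag fixes the ratio. Among genes outside the list, knh2, of the Kre9 and Knh family of surface proteins, had 72.0 tags against 1 at 149 bp upstream, and its relatives knh1 and knh4 had shared peaks. Of 7 genes annotated as glycosyl hydrolase family 13 or alpha-amylase, a group chosen after the values were seen, 3 had a peak without Sak1 and none a shared one. At SPAC27E2.01 84.1 tags stood against 6, a fold of 14 (6.28 to 38.5). At aah1 and aah3, which encode GPI-anchored members, 37.3 tags stood against 4 and 32.6 against 7, and the centres of all 3 lay 63 to 96 bp upstream with the forkhead word.

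Stress genes were reached at 3 of 24 by peaks without Sak1 (12.5% against 1.98% of all genes) and at 0 by shared peaks (against 0.880%). At tps1, the trehalose phosphate synthase gene, 83.4 tags stood against 7, a fold of 11.9 (5.67 to 30.1), 714 bp upstream. The other two, hsp9 and gpx1 (a glutathione peroxidase gene), had peaks inside their coding sequence without the forkhead word. No gene of the lists of membrane transporters (33), nutrient signalling (22) or polarity and secretion (28) had a peak without Sak1 in reach, though psy1 and rho4 of the last had shared ones. With 1.98% of all genes in reach, 0 in lists of these sizes is near the overall share. Spindle, kinetochore, cohesin and condensin genes were reached at 1 of 47 (2.13%), the cohesin release gene wpl1, from the peak that lies nearer to cdt1. Of 373 genes annotated as uncharacterized proteins, 7 had a peak without Sak1 in reach (1.88%), near the share of all genes.

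Neighbouring Fkh2 peaks within 2000 bp of each other formed 4 pairs, and 7 of the 8 peaks involved had no Sak1 overlap. Of all 152 Fkh2 peaks 116 had none (76.3%), so 7 of 8 is near the overall share. Beside ecm33 and mei3 these were a pair 985 bp apart upstream of SPBC36.02C, with 70.4 tags against 4 and 44.5 against 6, and a pair 378 bp apart in SPAC26F1.11, with 61.0 against 4 and 42.4 against 8. In 3 of the 4 pairs both peaks held the forkhead word; the weaker SPAC26F1.11 peak did not. The peak caller set 310 bp as the least distance between peaks.

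Peaks without Sak1 were found on all 3 nuclear chromosomes, 50 on I, 38 on II and 28 on III. Per Mb of chromosome these were 8.96, 8.37 and 11.4 peaks.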

How the data were processed

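Bowtie2 2.1.0, SAMtools 0.1.18 and HOMER are named in the submitters' processing notes; which step each served, and on which build, is not given in the sources used here. HOMER findPeaks called peaks, per the file headers, on the pooled Fkh2 library against the untagged library, at a false discovery rate of 0.001, 4 fold over the control and over the local 10000 bp, and a Poisson p-value of 1e-04. The deposited p-values, scores and focus ratios (a fraction) are not reported. Deposited signal values are tags scaled by the authors to 10000000 per library or to the control depth, and deposited folds are ratios of these. They were used only to describe and rank peaks within the list.

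Coordinates were read on ASM294v3 (5113 nuclear protein-coding genes, 7133 long noncoding RNA genes), since the files name no build. As a check, GTAAACA lay within 150 bp of 112 of 152 centres and of 5 to 19 with all peaks shifted by 1000 to 5000 bp. In 11 of 12 chromosome segments the count exceeded that of every shift. Overlap, reach and word searches were made in Python 3.11.15 with numpy 2.4.6 and scipy 1.17.1 and checked on simulated data. The members and the 15 gene lists (369 of 375 entries matched) were chosen with earlier results of these data known, gto1 in the cell wall list included; ribosomal protein genes were taken by product name. The genes named were the 20 strongest peaks without Sak1, the 10 strongest with it, the 5 weakest peaks, list members and neighbouring peaks. Other genes are named as neighbours of these or were picked after their values were seen. With 1 pooled sample a group no test was run. Tags come in steps of 0.5, so limits on folds are approximate.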

Additional observations from a re-analysis of the deposited data

How the results depend on the processing

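No paired analysis was possible because each group is 1 pooled sample. Of 18 alternatives, 8 stayed within the interval of the reported share, or within 1.5 times the reported count, and 10 moved beyond. In the upper 50% of Fkh2 peaks by tag count, 59.2% had no Sak1 peak, and of these 84.4% had a gene start in reach and 88.9% the forkhead word; 17 list members remained in reach in place of 27. At 8 fold over the control, 81.7% of the peaks without Sak1 had a gene start in reach. A reach of 500 bp upstream and 0 downstream gave 49.1% and 15 list members, and one of 1500 bp upstream and 500 downstream gave 82.8%. The word GTAAANA lay at 81.0%, and 76.7% of centres lay outside coding sequence when UTRs were not counted as gene. Ordered by fold, 9 of the first 20 peaks had no Sak1 overlap in place of 6, and 8 of the 20 strongest unshared peaks were the same as by tag count. Few untagged tags leave a fold wide open: with 1 untagged tag the interval at pvg1 ran from 14.2 to 3176.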
